A study of Homo sapiens with 14 samples.

Results

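Elongator methionine tRNAs (tRNA-Met-CAT genes) decode internal AUG codons, and in these data they comprised 5 loci among the 248 tRNA loci of the series. The loci were the tRNA clusters in the study's supplementary list of TRMT2A sites whose names begin with tRNA-Met-, and clusters less than 40 nt apart on a strand were joined, so that 13 listed clusters gave tRNA-Met-CAT-1-1, 2-1, 3-1, 3-2 and 6-1. A cluster was on that list only if it had at least 5 counts in at least 3 of the 5 experiments. The loci were therefore selected on the counts used here, and their levels within a method are a description with no test. Differences between methods were fitted over all tRNA loci, and no test is given for a locus that entered only through the groups in which it was high. The lowest listed locus, tRNA-Met-CAT-3-1, had 393 counts over all libraries. Among unlisted genes of the same type, the highest group counts were 36 in miCLIP and 10 in HAP1 FICC-Seq cells.

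The 14 libraries map TRMT2A, the human enzyme that methylates U54 of tRNAs, at nucleotide resolution in HEK293 cells, a human embryonic kidney line, and HAP1 cells, a near-haploid human line. FICC-Seq (3 libraries per cell line) used cells given 100 µM 5-fluorouracil (5FU) for 24 h, after which the endogenous enzyme is trapped on the uracil analogue it tries to methylate, and was isolated with a TRMT2A antibody. iCLIP (3 libraries per cell line) used the same antibody on endogenous TRMT2A linked to RNA by UV light, with no 5FU. miCLIP (2 libraries, HEK293 only) used an ectopically expressed, FLAG-tagged point mutant that stays linked to its substrate, isolated with a FLAG antibody and without UV light or 5FU, so that expression level and mutation set it apart from the others. No library without antibody, and no knockout library, was analysed here. The labels do not say whether the libraries of a group came from separate cultures. They give same-numbered iCLIP libraries of both lines the same sample barcode, and likewise the FICC-Seq libraries numbered 2 and 3. HEK293 FICC-Seq libraries 1 and 3 are also given 1 barcode, although their counts differed beyond sampling noise.

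A tRNA folds into a cloverleaf of which the T-arm, close to the 3′ end, carries the modified loop that names it. In elongator tRNAs the loop begins with T54, which is methylated to 5-methyluridine, and also holds A58, which is commonly methylated to 1-methyladenosine, a base that blocks reverse transcriptase. Initiator methionine tRNA reads the AUG start codon, has A54 in place of T54, and so offers no uridine there for TRMT2A. In UV crosslinking the counted position is taken as the linked base. A base trapped by the enzyme is often read through, and the methylated base is then predicted to be the next one 3′, so that counts at both 53 and 54 may stem from U54. Counts at 58 coincide with A58, where reverse transcription can stop with no crosslink.

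The T-arms are shown because they hold positions 54 and 58, around which the counts below fell. Those of elongator and initiator genes differ at several bases, of which position 54 is 1. Bases 47 to 73 are given 5′ to 3′ from GRCh37, with positions 54 and 58 in capitals.
tRNA-Met-CAT-2-1, chr16:71460442-71460468, plus strand: tcctgagTtcgAgcctcagagagggca
tRNA-Met-CAT-3-1, chr6:28912398-28912424, plus strand: tcctgagTtcgAacctcagagggggca
tRNA-Met-CAT-3-2, chr6:28921042-28921068, minus strand: tcctgagTtcgAacctcagagggggca
tRNA-Met-CAT-6-1, chr16:87417628-87417654, minus strand: tcgtgagTtcgAgcctcacacggggca
tRNA-iMet-CAT-1-1, chr1:153643771-153643797, plus strand: tcgatggAtcgAaaccatcctctgcta

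All 5 elongator genes are 73 nt long, and tRNA-Met-CAT-6-1 (chr16:87417628-87417700) lies in an intron of FBXO31 on the same strand. The annotation held no gene on the strand of the other 4. The genes tRNA-Met-CAT-3-1 and 3-2, on opposite strands of chromosome 6, were identical over their whole length. tRNA-Met-CAT-1-1 differed from 6-1 at 2 of 73 bases (97.3% identical), given as T20C and T59G with the base of 1-1 first and positions counted from 1 at the 5′ base of the gene, and from 2-1 at 10 bases (86.3% identical). Reads were kept only where they mapped uniquely, with up to 2 mismatches allowed. The last 20 bases occurred once in the genome for tRNA-Met-CAT-1-1 and 6-1, 2 times for 3-1 and 3-2, and 4 times for 2-1. A read that ends in such a repeated stretch can be assigned only through its length or the bases beyond the gene. Counts of 3-1, 3-2 and 2-1, and the split between 3-1 and 3-2, are therefore uncertain. Over their last 20 bases 1-1 and 6-1 differed at 1 base, fewer than the 2 mismatches allowed. Mature tRNA ends in an added CCA, which differed from the bases after the gene at 3 positions for 6-1 and 3-1. It differed there at 2 for 3-2 and 2-1, and at 1 for 1-1. The split between 6-1 and 1-1 is thus uncertain too.

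Elongator methionine tRNA counts came mainly from tRNA-Met-CAT-6-1 in the endogenous enzyme's libraries. In FICC-Seq it had 765, 399 and 824 counts in HEK293 libraries 1 to 3 and 767, 870 and 941 in those of HAP1. It had 267, 125 and 86 counts in HEK293 iCLIP, 105, 119 and 91 in HAP1 iCLIP, and 325 and 591 in miCLIP. Because total counts per library ran from 7002 to 104605, levels are given as a share of all counts at tRNA loci in the same library. On that scale tRNA-Met-CAT-6-1 held 3.44% ± 0.497 (SD, n = 3) of tRNA counts in HEK293 FICC-Seq, 3.17% ± 0.221 in HAP1, 2.74% ± 0.595 in HEK293 iCLIP, 1.98% ± 0.0708 in HAP1 iCLIP and 1.24% ± 0.370 (n = 2) in miCLIP. It ranked 3 and 4 among tRNA loci in the FICC-Seq groups, 8 and 9 in iCLIP and 11 in miCLIP.

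The near-identical tRNA-Met-CAT-1-1 (chr8:124169470-124169542, minus strand) followed, with 199, 176 and 171 counts in HEK293 FICC-Seq and 211, 294 and 242 in HAP1. Its iCLIP counts were 67, 40 and 21 in HEK293 and 26, 64 and 14 in HAP1, and its miCLIP counts were 256 and 614. Thus 1-1 was below 6-1 in all 12 libraries of the endogenous enzyme, whereas in miCLIP it was below in 1 library and above in the other. As a share of tRNA counts it held 1.01% ± 0.279 and 0.919% ± 0.141 in the HEK293 and HAP1 FICC-Seq groups, 0.742% ± 0.166 and 0.628% ± 0.424 in iCLIP, and 1.10% ± 0.118 in miCLIP.

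The other 3 loci were low wherever the endogenous enzyme was trapped with 5FU. tRNA-Met-CAT-3-2 (chr6:28921042-28921114) had 20, 26 and 13 counts in HEK293 FICC-Seq, 11, 39 and 17 in HAP1, 33, 21 and 19 in HEK293 iCLIP, 27, 33 and 42 in HAP1 iCLIP, and 150 and 494 in miCLIP. Its identical copy tRNA-Met-CAT-3-1 (chr6:28912352-28912424) had 5, 1 and 2 counts in HEK293 FICC-Seq and 2, 6 and 3 in HAP1, against 12, 10 and 8 and then 23, 14 and 14 in iCLIP, and 108 and 185 in miCLIP. As a share of tRNA counts, every iCLIP and miCLIP library of both loci was above every FICC-Seq library. How many of all tRNA loci separate in this way was not counted. In the fits given below, 31.6% of tested loci in HEK293 and 29.1% in HAP1 were lower in FICC-Seq than in iCLIP. In HEK293, 46.7% were lower than in miCLIP. For tRNA-Met-CAT-2-1 (chr16:71460396-71460468) the counts were 51, 26 and 33 in HEK293 FICC-Seq, 9, 32 and 10 in HAP1, 21, 15 and 10 and then 2, 14 and 4 in iCLIP, and 48 and 123 in miCLIP. Its share was thus lower in HAP1 FICC-Seq (0.0620% ± 0.0453) than of HEK293 (0.197% ± 0.0602).

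Summed over the 5 loci, elongator methionine tRNA took a like share of tRNA counts in the 5 experiments, from 3.70% ± 0.456 in HAP1 iCLIP and 3.70% ± 0.551 in miCLIP to 4.78% ± 0.464 in HEK293 FICC-Seq. Within that sum the make-up differed. tRNA-Met-CAT-6-1 gave 73.3% of the 2711 counts in HEK293 FICC-Seq and 74.6% of 3454 in HAP1, 63.3% and 53.2% in iCLIP, and 31.7% of 2894 in miCLIP. The identical genes 3-2 and 3-1 gave 2.18% and 0.295% in HEK293 FICC-Seq, but 22.3% and 10.1% in miCLIP.

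Initiator methionine tRNA had almost no FICC-Seq counts. tRNA-iMet-CAT-1-1 had 0 counts in each FICC-Seq library of HEK293 and 0, 6 and 4 in those of HAP1, against 296, 205 and 176 in HEK293 iCLIP, 103, 126 and 146 in HAP1 iCLIP, and 64 and 167 in miCLIP. The second listed locus, tRNA-iMet-CAT-1-5, had 0 counts in all 6 FICC-Seq libraries, 14 to 39 per iCLIP library and 2 and 8 in miCLIP. In iCLIP the listed initiator loci thus held a share of tRNA counts like that of the elongator loci, 4.95% ± 0.693 in HEK293 and 2.77% ± 0.736 in HAP1. This share leaves out unlisted initiator genes of the same sequence, which had 10 to 124 iCLIP counts each in HEK293 and 6 to 74 in HAP1. The share of initiator tRNA as a whole was therefore higher than that given. In FICC-Seq the elongator loci had 2711 and 3454 counts in HEK293 and HAP1, and the initiator loci had 0 and 10.

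The share of tRNA-iMet-CAT-1-1 was at least 775-fold lower in FICC-Seq than in HEK293 iCLIP, with 0 of 56777 against 677 of 16533 tRNA counts and the limit of 3 counts over the group in place of 0. In HAP1 the ratio was 193, with 10 of 81924 against 375 of 15901. Near absence from FICC-Seq was not particular to the initiator loci: of 159 loci with T54 and at least 30 iCLIP counts, 5 (tRNA-Cys-GCA-2-4, tRNA-Gln-CTG-1-2, 1-4 and 1-5, and tRNA-Lys-TTT-7-1) had FICC-Seq counts of at most 10% of their iCLIP counts, as had both initiator loci. What base 54 contributes was not tested. Since both initiator loci passed the list through iCLIP and miCLIP, no test was made of this difference. The same sequence is shared by 8 initiator genes, so which of them gave the reads is uncertain. Limits from a count of 0 cover counting error only, and 3 counts are 0.00496% to 0.0788% of a library's tRNA counts.

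The levels of single elongator loci differed between methods for some genes and not for others. They were fitted with limma's voom over all 244 tRNA loci that passed the filter on low counts, which included all 5 elongator methionine loci. In this fit a log2 fold change compares shares scaled by the trimmed mean of M-values. Between FICC-Seq and HEK293 iCLIP cells, 54.5% of all tested tRNA loci passed an adjusted p of 0.05, with 23.0% higher and 31.6% lower in FICC-Seq. Among the methionine loci, tRNA-Met-CAT-3-1 reached the filter on low counts in none of the 6 FICC-Seq libraries and in all iCLIP and miCLIP libraries. Its changes in comparisons that use FICC-Seq libraries are therefore given with no test. Of the other 4, 1 was lower and none higher.

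This was tRNA-Met-CAT-3-2, with a log2 fold change of -2.31 (SE 0.446, adjusted p 0.000283, limma), which itself reached the filter in 2 of 3 HEK293 and 1 of 3 HAP1 FICC-Seq libraries. Its copy 3-1 had a fitted log2 fold change of -3.83. For tRNA-Met-CAT-6-1 the log2 fold change was 0.20 (SE 0.264, adjusted p 0.541), for 1-1 it was 0.23 (SE 0.301, adjusted p 0.539) and for 2-1 it was -0.72 (SE 0.426, adjusted p 0.165). The genes with the most counts thus did not pass, and their sign turned to -0.10 and -0.075 with a median-of-ratios scaling, which moved the median of all loci by -0.31 and the calls to 40 higher and 82 lower from 56 and 77. The median log2 fold change was -0.72 over the 5 methionine loci and -0.067 over all 244.

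In HAP1 cells, 50.8% of tested loci differed between FICC-Seq and iCLIP, 21.7% higher and 29.1% lower in FICC-Seq. Among the 4 methionine loci tested, 2 passed. tRNA-Met-CAT-3-2 had a log2 fold change of -2.97 (SE 0.415, adjusted p 9.99e-06, limma), with -4.38 for its copy 3-1 as a description, while 6-1 was higher in FICC-Seq by 0.73 (SE 0.265, adjusted p 0.0250, limma). The call on 6-1 was lost without FICC-Seq library 1 (0.47), FICC-Seq library 3 (0.63) or iCLIP library 2 (0.64) of HAP1, and with the median-of-ratios scaling (0.51). For 1-1 the log2 fold change was 0.67 (SE 0.322, adjusted p 0.0847), which passed with the replicate number as a block (0.67, adjusted p 0.0450, limma) and without iCLIP library 2 of HAP1 (1.14, adjusted p 0.0221, limma). tRNA-Met-CAT-2-1 had -0.92 (SE 0.630, adjusted p 0.237). The difference of these changes between HAP1 and HEK293 passed for 0 of 244 loci, with 21 at an unadjusted p under 0.05. The methionine loci other than 3-1 had adjusted p of 0.783 or more (limma).

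Against miCLIP, HEK293 FICC-Seq differed at 78.7% of tested loci, 32.0% higher and 46.7% lower in FICC-Seq. Here 1 of the 4 methionine loci tested was higher and 1 was lower. tRNA-Met-CAT-6-1 was higher in FICC-Seq by a log2 fold change of 2.0 (SE 0.292, adjusted p 3.59e-06, limma), whereas 3-2 had -2.42 (SE 0.417, adjusted p 2.34e-05, limma). The untested value of 3-1 was -4.21. For 1-1 and 2-1 the log2 fold change was 0.35 each, with SE 0.304 and 0.349 and adjusted p 0.301 and 0.356, and both signs turned (-0.17 and -0.15) when libraries were scaled by total tRNA counts. That scaling moved the median of all loci by -0.52, and the calls went to 65 higher and 131 lower from 78 and 114. With only 2 miCLIP libraries, and with another antibody and a tagged mutant in them, the method cannot be told apart from these.

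Between cell lines, 1 of the 4 methionine loci tested differed in FICC-Seq. tRNA-Met-CAT-2-1 was lower in HAP1 than in HEK293, with a log2 fold change of -1.78 (SE 0.432, adjusted p 0.00741, limma), where 12.7% of tested loci differed, 6.15% higher and 6.56% lower. It reached the filter on low counts in 3 of 3 HEK293 but only 1 of 3 HAP1 FICC-Seq libraries. This locus thus passed the filter mainly through groups in which its share was higher. The call was lost without FICC-Seq library 3 of HAP1 (-1.36, adjusted p 0.0622, limma) and when the trend method replaced the voom weights (-1.79, adjusted p 0.0511, limma). tRNA-Met-CAT-3-2, 6-1 and 1-1 had log2 fold changes between -0.38 and -0.079, with adjusted p of 0.790 or more (limma). The untested value of 3-1 was -0.032. In iCLIP none of the methionine loci passed, and 0.820% of all loci did (0.410% higher and 0.410% lower), with 26 at an unadjusted p under 0.05. There tRNA-Met-CAT-2-1 had -1.59 (adjusted p 0.366) and 6-1 had -0.61 (adjusted p 0.407). Cell line and the set of libraries made from it cannot be told apart.

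**Figure D1:**
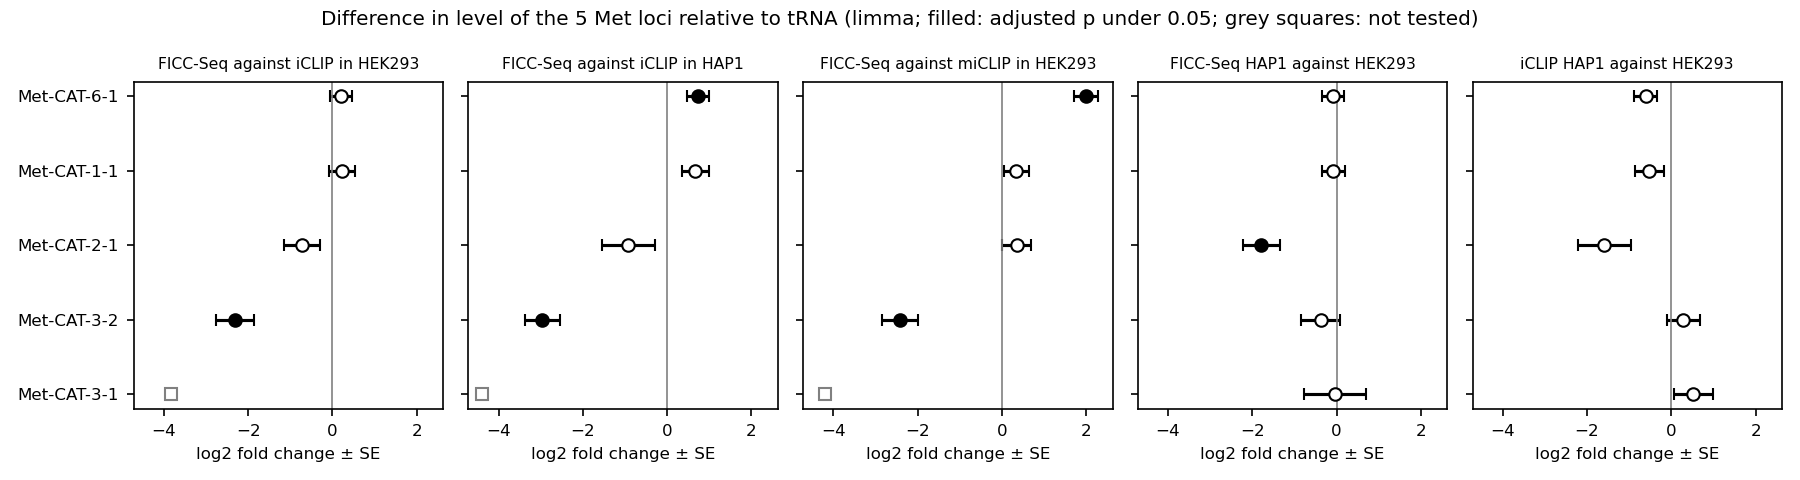
Log2 fold changes of the 5 elongator methionine tRNA loci in each comparison of the 244 tested tRNA loci, with bars for the standard error, filled points for an adjusted p under 0.05 and grey squares for changes of 3-1 that were not tested. tRNA-Met-CAT-3-2 lies at -2.31 and -2.97 in FICC-Seq against iCLIP and at -2.42 against miCLIP, and tRNA-Met-CAT-6-1 lies at 2.0 against miCLIP. The point of 3-1 between cell lines in FICC-Seq is also a description with no test.

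Where along the tRNA the counts fell differed more by method than their sum did. In FICC-Seq most counts of the elongator loci were at 53 and 54, around the methylated U54. By library their share at these positions was 67.7%, 62.4% and 71.2% in HEK293 and 65.1%, 59.7% and 67.4% in HAP1. In iCLIP it was 25.0%, 28% and 8.33% in HEK293 and 17.5%, 36.1% and 10.9% in HAP1, and in miCLIP 45.3% and 43.1%. In the sum over the 5 loci, every FICC-Seq library was thus above every miCLIP library, and every miCLIP library above every iCLIP library. Single loci did not all keep this order: at tRNA-Met-CAT-3-2 the FICC-Seq shares ran from 10.3% to 82.4% and the miCLIP shares were 58% and 50.4%, and the miCLIP shares of 3-1 were 64.8% and 71.4%. Other tRNA loci gave like values, with 70.9% and 66% in the HEK293 and HAP1 FICC-Seq groups, 20.2% and 22% in iCLIP and 45.7% in miCLIP.

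The difference between FICC-Seq and iCLIP at 53 and 54 was 44.6 percentage points (65.6% against 21.0%, n = 6 libraries each), with an exact two-sided permutation p of 0.005 within cell lines, the smallest this design gives, and 0.0375 after Benjamini-Hochberg adjustment over 15 position tests. With the replicate number as a block the adjusted exact p was 0.141, for this difference and for the next, in a test whose smallest unadjusted p is 0.03125. At positions 44 to 48, before the T-stem, FICC-Seq had 0.177% and iCLIP 12.1%. That difference of -12.0 points had the same exact p of 0.005 (adjusted 0.0375). It was -7.09 with loci weighted equally and -4.32 with positions numbered from the other cell line, and the call was lost in both (adjusted exact p 0.156 and 0.12). Single iCLIP libraries had 6.25%, 10.4% and 18.1% there in HEK293 and 16.9%, 13.9% and 7.27% in HAP1, above every FICC-Seq library, whose highest was 0.645%. At 58 the groups overlapped, with 20.3% in FICC-Seq and 33.3% in iCLIP (difference -13.0 points, exact permutation p 0.045, adjusted 0.135).

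**Figure D2:**
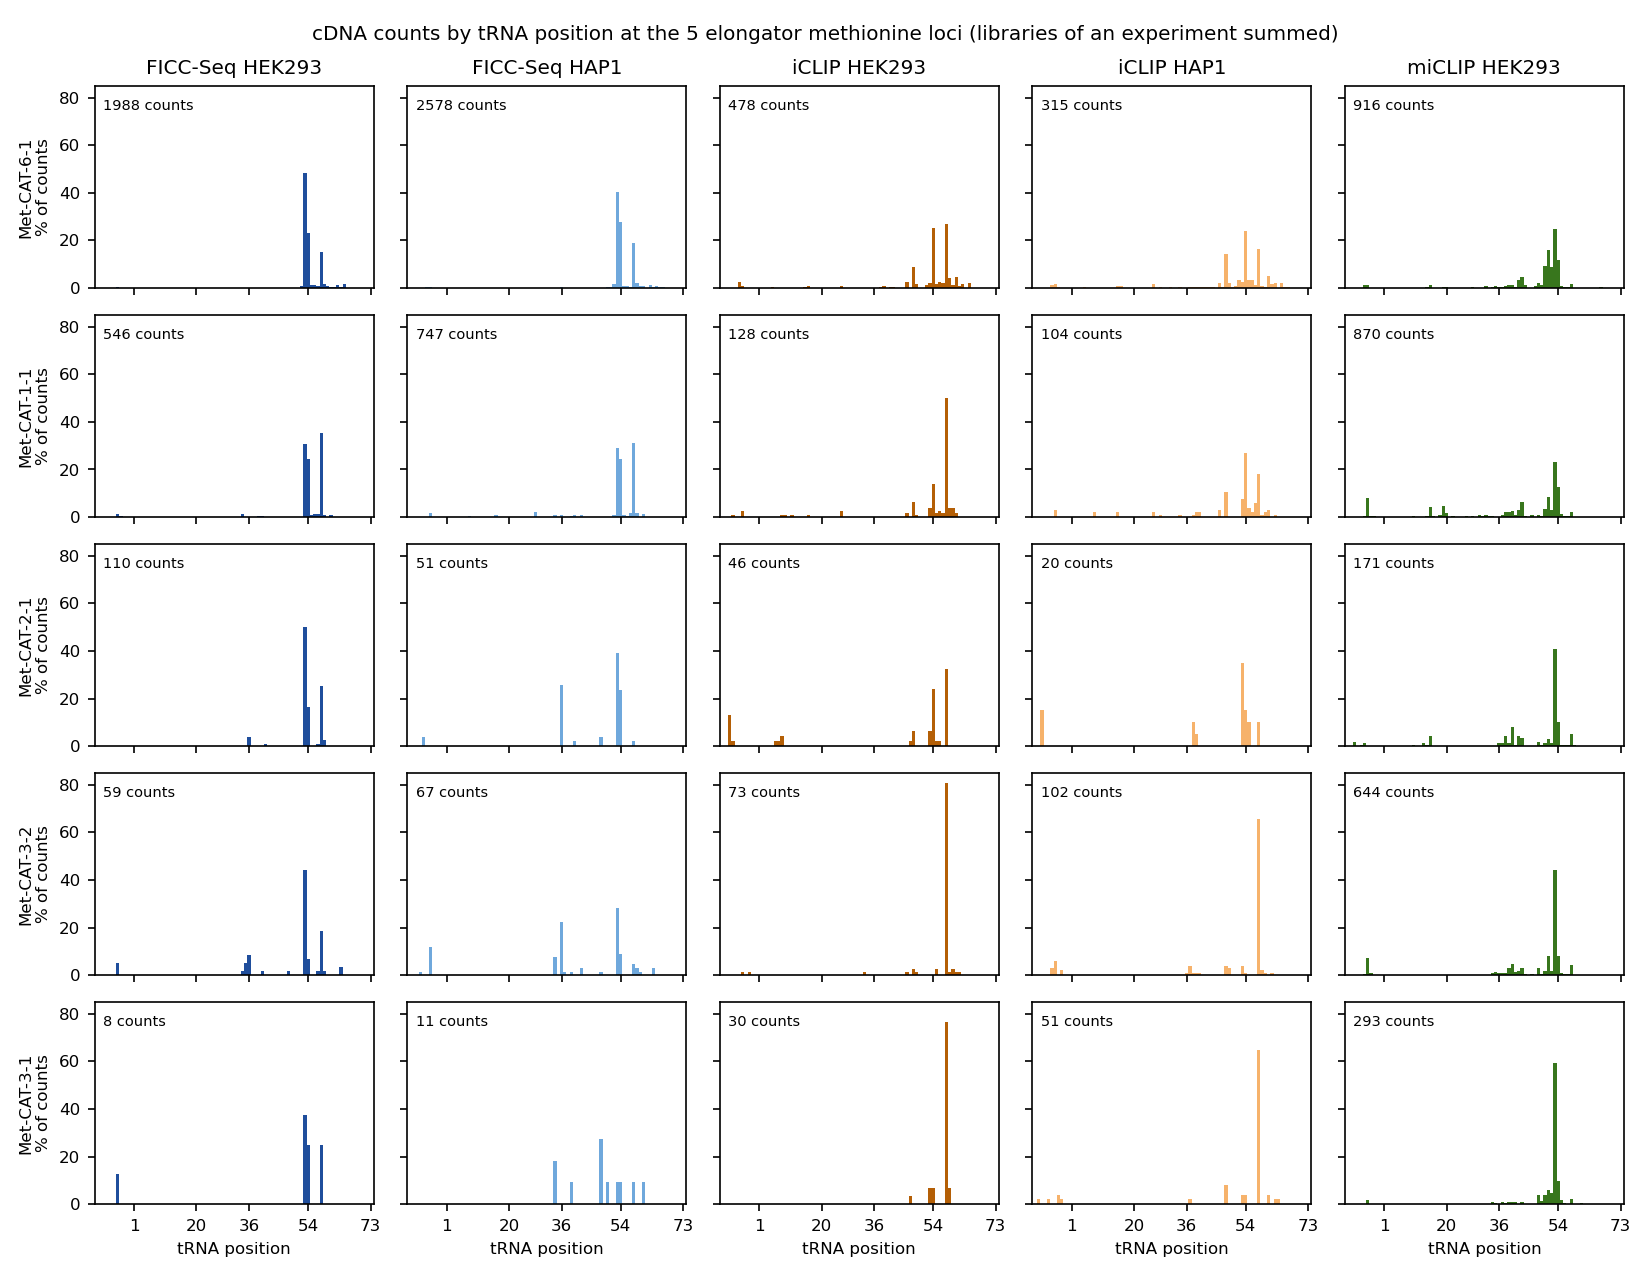
Percent of the counts of each elongator methionine tRNA locus by tRNA position, with the libraries of each of the 5 experiments summed and each panel giving its number of counts. tRNA-Met-CAT-6-1 peaks at 53 in FICC-Seq, 1-1 at 58 in FICC-Seq, 3-1 and 3-2 at 58 in iCLIP, and all 5 loci at 53 in miCLIP.

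Within FICC-Seq the 2 most counted loci, which differ in their sequence at 20 and 59, did not share a pattern. At tRNA-Met-CAT-6-1 the highest position was 53, with 966 counts for HEK293 and 1038 for HAP1. It had 464 and 715 at 54 and 300 and 484 at 58. At tRNA-Met-CAT-1-1 position 58 was highest, with 192 and 233 counts, against 168 and 217 at 53 and 133 and 181 at 54. Its share at 58 was 36.2%, 30.1% and 39.2% in HEK293 and 38.4%, 25.2% and 32.2% in HAP1, above that of 6-1 in all 6 libraries, where it was 17.9%, 15.5% and 12.3% and then 20.5%, 16.7% and 19.3%. This was seen in the data and then counted, so it was not tested. Within the gene, a read counted at 53, 54 or 58 separates the 2 genes by base 59 alone. Where a read holds the added CCA, its mismatches to the bases after each gene count as well. The assignment is therefore uncertain at each of these positions. A highest position at 53 or 54 was found for 84.1% of 182 loci in HEK293 (3 of 4 methionine loci with at least 10 counts) and for 81.6% of 201 in HAP1 (3 of 5), and one at 58 for 15.9% (1 of 4) and 12.9% (1 of 5).

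In iCLIP the profile of 6-1 was spread over 58, 54 and 48. It had 129, 120 and 43 counts at these in HEK293 and 52, 75 and 45 in HAP1. For tRNA-Met-CAT-3-2 position 58 dominated, with 84.8%, 85.7% and 68.4% of its counts in HEK293 and 66.7%, 42.4% and 83.3% in HAP1, against 20%, 7.69% and 38.5% and then 9.09%, 2.56% and 5.88% in FICC-Seq. These FICC-Seq shares rest on 11 to 39 counts per library. Its copy 3-1 had 23 of 30 iCLIP counts at 58 in HEK293 and 33 of 51 in HAP1. The 5 methionine loci all had their highest iCLIP position at 58 in HEK293, as had 61.3% of 181 tRNA loci, while in HAP1 this held for 2 of 5 and for 46.2% of 197.

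Locus by locus, the share at 53 and 54 did not overlap between the FICC-Seq and iCLIP libraries, with FICC-Seq higher, for 4 of 4 methionine loci with enough counts in HEK293 (91.3% of 104 loci tested) and 1 of 3 in HAP1 (85.7% of 112). The locus that did so in HAP1 was tRNA-Met-CAT-6-1, at 68.6%, 67.0% and 68.4% in FICC-Seq against 28.6%, 31.1% and 17.6% in iCLIP. For tRNA-Met-CAT-1-1 iCLIP library 2 of HAP1 had 54.7%, within the FICC-Seq range of 47.6% to 61.6%, and the other iCLIP libraries had 0% and 7.14% on 26 and 14 counts. The share at 44 to 48 was lower in FICC-Seq without overlap for 1-1 and 6-1 in both lines (51.9% and 58.9% of loci tested), and that at 58 for 3-2 in both lines (24.0% and 19.6%).

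**Figure D3:**
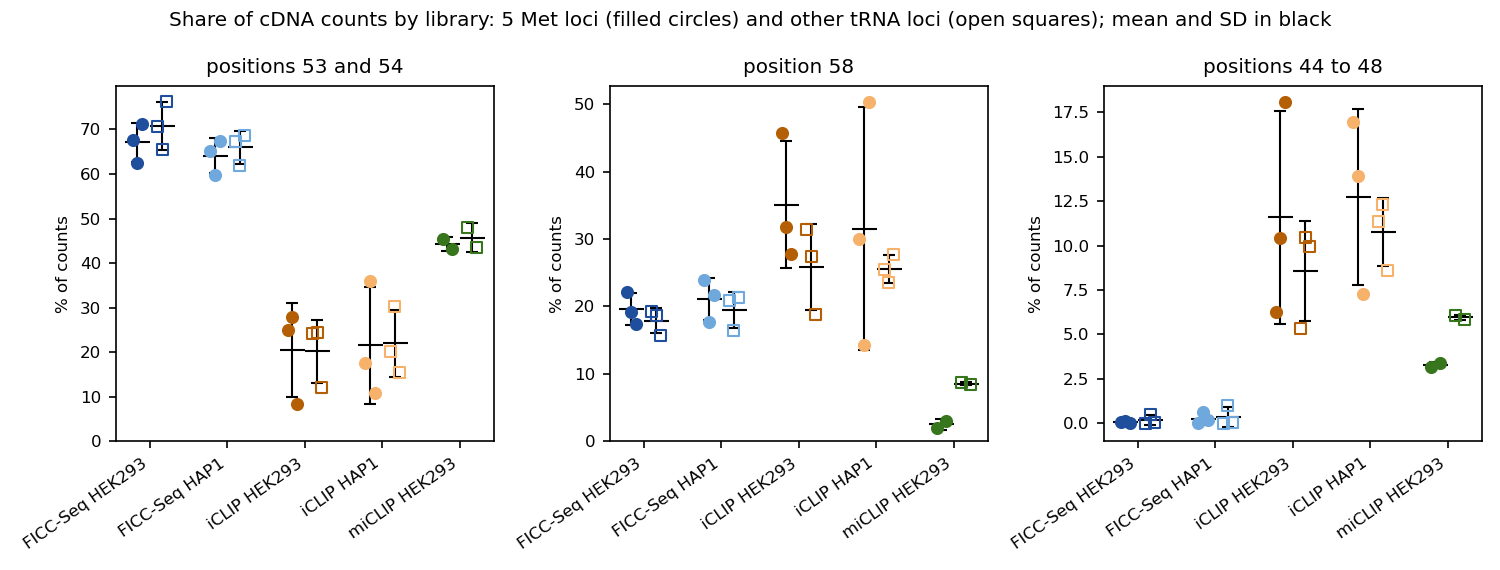
Percent of the counts of the 5 elongator methionine loci (filled) and of the other tRNA loci (open) at positions 53 and 54, 58 and 44 to 48, with 1 point per library in each of the 5 experiments. At 53 and 54 the FICC-Seq libraries sit between 59.7% and 71.2%, miCLIP at 43.1% and 45.3% and iCLIP between 8.33% and 36.1%. At other loci with extra bases before the T-stem, 44 to 48 are not like positions.

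In miCLIP position 53, the base 5′ of U54, was highest at all 5 loci, as 53 or 54 was at 89.4% of 235 tRNA loci. Position 53 had 227 counts at tRNA-Met-CAT-6-1, 200 at 1-1, 284 at 3-2, 174 at 3-1 and 70 at 2-1. No methionine locus was highest at 58, as 6.81% of all loci were, and this position was low, at 1.92% and 3.04% of the methionine counts in the 2 libraries, against 17.4% to 23.9% in FICC-Seq. The T-stem at 49 to 52 held 17.8% to 25.9% of the pooled methionine counts, against 7.22% to 9.18% at other tRNA loci. At position 51 it had 145 of the 916 counts of 6-1, 72 of 870 at 1-1 and 51 of 644 at 3-2. At 3-1 it had 17 of 293 and at 2-1 only 5 of 171. The pooled share came most from 6-1. With both libraries summed, the share over 49 to 52 was highest at 6-1. That share was also above the 7.22% to 9.18% of other tRNA loci at 1-1, 3-1 and 3-2, but below it at 2-1. tRNA-Met-CAT-1-1 also had 69 counts and 3-2 had 47 at 1 position of the 5′ leader, upstream of the mature tRNA. Between HEK293 FICC-Seq and miCLIP the differences were 22.9 points at 53 and 54, 17.1 at 58 and -3.19 at 44 to 48, each with an exact permutation p of 0.1, the smallest that 3 against 2 libraries allow (adjusted 0.188). Over the alternatives these ran from 9.44 to 35.1, from 4.73 to 29.3 and from -7.46 to -2.74.

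Compared with other tRNA loci in the same FICC-Seq libraries, the methionine loci had 2.81 points less at 53 and 54 (-2.81) and 1.65 points more at 58. Both differences had one sign in 6 of 6 libraries and an exact permutation p of 0.03125, the smallest that 6 libraries allow, and neither passed after adjustment (0.117). Without tRNA-Met-CAT-6-1 they were -13.5 and 11.6, and at 58 the sign turned with positions numbered from the other cell line (-0.203). At 44 to 48, which are not like positions at loci with extra bases before the T-stem, the difference was -0.0848 points (exact p 0.406). In iCLIP the corresponding differences were -0.108 (exact p 0.938), 7.58 (exact p 0.188) and 2.50 points (exact p 0.188), the second of them 26.9 without 6-1 and the third -2.38 with loci weighted equally. HEK293 and HAP1 FICC-Seq libraries differed by 3.03 points at 53 and 54 (exact p 0.4), -1.51 at 58 (exact p 0.6) and -0.185 at 44 to 48 (exact p 0.5). These tests did not pair libraries by number. At 58 the sign turned with equal weights (10.6) and without 6-1 (3.77), and at 44 to 48 the alternatives ran from -3.62 to 0.0027. Taken by library number, the share at 53 and 54 was higher in HEK293 in every pair. It was 67.7% against 65.1% for number 1, 62.4% against 59.7% for 2 and 71.2% against 67.4% for 3. At 58 and at 44 to 48 the sign differed between pairs. Pairing of the libraries numbered 3 is uncertain.

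FICC-Seq library 2 stood apart in both cell lines by its counts in the anticodon arm, bases 27 to 43. There 5.89% of the methionine counts of HEK293 library 2 (37 of 628) and 8.86% of those of HAP1 library 2 (110 of 1241) were found, against 0% and 0% in HEK293 libraries 1 and 3 and 0.30% and 0% in those of HAP1. Other tRNA loci had 3.13% and 5.64% at these positions in the libraries numbered 2 and 0.0654% to 0.217% in the rest. Positions were counted back from base 54, so at loci with an intron or extra bases before the T-stem these can lie outside the arm. At tRNA-Met-CAT-3-2 in HAP1 library 2 the arm held 59% of 39 counts, and 53 and 54 held 10.3%, against 63.6% and 82.4% in the others. The labels give both libraries numbered 2 the same sample barcode, whose part in this was not tested. Without the libraries numbered 2 the FICC-Seq mean in the arm went from 1.96% to 0% in HEK293 and from 3.05% to 0.150% in HAP1. In iCLIP the arm held 1.5%, 2.37% and 2.78% of the methionine counts in HEK293 and 3.83%, 10.7% (26 of 244) and 0.606% in HAP1, where library 2 was again the highest, and in miCLIP it held 12.4% and 18.8%.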

How the data were processed

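The authors deposited, for each of 14 libraries, cDNA counts per position of hg19 as whole numbers whose sign gives the strand, so that the unit of the deposited values is a signed count, with no scaling for depth. They had removed duplicates by random barcodes on the iCount web server, trimmed adaptors and mapped reads with bowtie, allowing up to 2 mismatches and keeping unique hits. A random barcode has 5 bases (1024 combinations), which can merge molecules at highly counted positions.

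Absolute counts were summed by position on the strand of each cluster, from 100 nt 5′ to 25 nt 3′ of it, and clusters less than 40 nt apart were joined. Position 54 was read from the T-loop of the gene found in GRCh37. Other positions were counted from it without gaps. At genes with an intron or extra bases before the T-stem, positions 5′ of it are therefore not those of tRNA numbering. Libraries had 7002 to 104605 counts. Loci with at least 15 counts in all, reaching the equivalent of 10 counts in a library of median size in at least 2 libraries, were fitted with limma's voom (prior count 0.5, trimmed mean of M-values with 30% and 5% trims). The sums of absolute values were whole counts, and limma was used in place of the count model planned first. The groups came from the labels. Position shares were compared by exact two-sided permutation of libraries, kept within a cell line for tests over both, and p-values adjusted by Benjamini-Hochberg. The labels do not say that libraries of a group were separate cultures, so p-values measure the spread between these libraries, which may be technical. Replicate numbers were checked for pairing by the correlation of same-numbered libraries' deviations from their group means over loci. Every pair had r over 0.1 for FICC-Seq and iCLIP of HAP1 (0.141, 0.303, 0.138), for FICC-Seq of both lines (0.453, 0.637, 0.339) and for iCLIP of both lines (0.156, 0.326, 0.166). These numbers were taken to pair. For the libraries numbered 3 a differently numbered library correlated better in the first of these sets (0.164) and in the second (0.403). Their pairing is therefore uncertain. All replicate pairs differed beyond sampling noise.

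The members, lists and named loci were chosen with earlier results of these data known. The named loci were all 5 elongator loci and the listed initiator loci. The steps were tested on simulated data. Alternatives covered scaling, filters, the numbering, the weighting of loci, a replicate block and leaving out each library, and 3 were chosen after seeing the data: median-of-ratios scaling, limma's trend method and the anticodon arm without library 2. Sequences of chromosome 8 are not reported here. The fits used R 4.3.3 with limma 3.58.1, and the other steps used scipy 1.17.1, numpy 2.4.6, pysam 0.24.0, pandas 2.3.3 and matplotlib 3.10.9 under Python 3.11.15.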

Additional observations from a re-analysis of the deposited data

Results flagged for a closer look

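Counts at elongator-type genes outside the listed loci, which entered no comparison above, drew attention because they exceeded what a count of 0 allows. A scan of GRCh37 found 6 further genes of elongator methionine type, with T54 and a full acceptor stem, that were not on the study's list. The gene at chr6:26701712-26701784 had 10 counts in HAP1 FICC-Seq and 36 in miCLIP, that at chr6:26758550-26758622 had 6 in miCLIP, and that at chr6:58168492-58168564 had 4 in miCLIP. These are above the limit of 3 counts, and no control library sets a background for them. The other 3 genes had 0 counts in all groups.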

How the results depend on the processing

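Of the fold changes of the methionine loci under all alternatives (those of 3-1 against FICC-Seq left out), 240 kept direction and side of the threshold, 11 turned sign, 6 fell below it and 3 rose past it. The cause was not tested. For position shares the numbers were 177, 13, 18 and 1.

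The difference at 53 and 54 between FICC-Seq and iCLIP was 43.7 points with loci weighted equally and 39.0 with positions numbered from the other cell line, and that at 44 to 48 was -7.09 and -4.32, all no longer past the threshold. Leaving out each library in turn gave 41.6 to 48.3, and -13.3 to -10.3, with adjusted p up to 0.0750 in an exact test of fewer libraries. At 58 it was -17.3 to -8.30, past the threshold without iCLIP library 2 of HAP1. The HEK293 minus HAP1 difference in FICC-Seq turned sign at 58 with equal weights (10.6) and without tRNA-Met-CAT-6-1 (3.77), and at 44 to 48 was -0.320 to 0.00269 when libraries were left out. Methionine minus other tRNA loci turned sign at 44 to 48 in FICC-Seq (1.73 with equal weights, 0.0801 without 6-1, 3.23 with the other numbering) and in iCLIP (-2.38 and -2.0), at 58 in FICC-Seq with the other numbering (-0.203), and at 53 and 54 in iCLIP (0.103 without single counts, -1.31 to 0.790 with libraries left out).

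With the replicate number as a block (pairing), the differences stayed at 44.6 and -12.0 but with adjusted exact p of 0.141, where the smallest p is 0.03125, and tRNA-Met-CAT-1-1 passed in HAP1 (0.67). The block changed no other call. In HEK293 the FICC-Seq and iCLIP numbers (r 0.211, 0.147, 0.0625) and the miCLIP numbers (-0.0148, 0.0245) share only a number, and the block gave 138 and 184 loci differing there.

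The count of loci differing between cell lines was 17 in FICC-Seq and 1 in iCLIP with limma's trend method, and 0 to 6 in iCLIP with libraries left out. Median-of-ratios scaling gave -0.10 for 6-1 and -0.075 for 1-1 in FICC-Seq against HEK293 iCLIP, and moved the median of all loci there by -0.31. Total counts gave -0.15 for 2-1 and -0.17 for 1-1 against miCLIP. With libraries left out, 6-1 (-0.023 to 0.44) and 1-1 (-0.026 to 0.42) in HEK293, and 3-1 (-0.35 to 0.36) and 1-1 (-0.29 to 0.013) between cell lines in FICC-Seq, crossed 0. A DESeq2 fit was not run. With 8 to 51 counts per group in 3-1 outside miCLIP, small differences there were not detectable at this depth.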
